A study of Mus musculus with 6 samples.

Results

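The genes described here are *Trem2*, its adaptor *Tyrobp* and 8 genes that mark disease-associated microglia, namely *Apoe*, *Lpl*, *Cst7*, *Clec7a*, *Itgax*, *Cd9*, *Spp1* and *Lgals3*. They were taken by gene symbol and make up 10 of the 19225 genes in the expression table, and all 10 were listed. RNA was measured in CD11b+ cells magnetically enriched from the brain, that is, microglia together with other myeloid cells carrying this integrin subunit. There were 3 libraries of *Cnr1+/+* mice (strain C57BL6/J in the labels, genotype wt/wt) and 3 of *Cnr1-/-* mice (strain Cnr1 tm1Zim, genotype d/d), 1 library per mouse. The paper describes the mutant line as backcrossed to C57BL6/J and states that littermates of both genotypes were used. *Cnr1* encodes the cannabinoid receptor CB1, and the d/d mice carry its deletion in all cells rather than in microglia alone. All mice were male, had not been stressed and are 3 months old in the labels, whereas the methods give a younger age. Mice were perfused, brains were dissociated mechanically and myelin was removed on Percoll before the bead separation. Libraries were made from the 3′ ends of polyadenylated transcripts.

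TREM2 is a surface receptor of microglia that binds lipids, lipoproteins and APOE, and it signals through the ITAM motif of its adaptor TYROBP (DAP12). Microglia around amyloid plaques, in demyelinated tissue and in some neurodegenerative models lower homeostatic genes and raise a common set of genes. In this transition *Tyrobp* and *Apoe* belong to an early step, and *Cst7*, *Lpl*, *Clec7a*, *Itgax*, *Spp1* and *Cd9* are raised in a later step that depends on TREM2.

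Values are normalised reads as deposited, on the CPM scale (written cpm, reads relative to the library total). The authors applied TMM scaling, so this total may be a scaled one, and library sizes and shares below are relative to it. The values correspond to 7708754 to 10023177 reads in the *Cnr1+/+* libraries and 8385668 to 10723715 reads in the *Cnr1-/-* libraries. Hence 3 reads, the most that a value of 0 allows, equal 0.280 to 0.389 cpm. This limit covers counting error only. The listed genes held 50.1%, 54.1% and 54.3% of the total in *Cnr1+/+* and 53.5%, 59.1% and 58.1% in *Cnr1-/-*, so a scaling to the listed genes lowers the *Cnr1-/-* values relative to the deposited scale. *Cnr1* itself was listed at 0 in all 3 libraries labelled *Cnr1+/+* and at 1.41, 1.21 and 1.79 cpm (13, 13 and 15 reads) in those labelled *Cnr1-/-*. Read as expression of the whole gene, these values go against the genotype labels. The paper describes an allele whose coding region is interrupted by a neomycin cassette, and it says that microglia express little CB1. Whether the reads came from the remaining part of that allele was not tested. Where in the gene these 3′ reads lie is not given in the table, so all directions below are those of the library labels. The 12 homeostatic microglia genes checked, among them *P2ry12* and *Tmem119*, summed to 22226 to 26215 cpm in the *Cnr1+/+* and 24482 to 26659 cpm in the *Cnr1-/-* libraries, so defining genes of the labelled cell type were present. The library labelled *Cnr1-/-* replicate 2 stood apart by transcripts of blood cells. Its 11 neutrophil markers together reached 4117 cpm, where the other 5 libraries had 270.2 to 532 cpm, and its 7 erythrocyte markers reached 2342 cpm, where the others had 136 to 237 cpm. Results that rest on this library are given with and without it.

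None of the TREM2 axis and disease-associated genes that could be tested was called as different between genotype labels. The limma test used log2(cpm + 0.1) and took in 6659 genes whose mean reached 10 cpm. P-values were adjusted after Benjamini-Hochberg over all of them, and a gene was called where its p before adjustment was under 0.05 (the nominal threshold). Of the 6 genes tested, *Trem2*, *Tyrobp*, *Apoe*, *Lpl*, *Clec7a* and *Cd9*, 0 were called, where 6.02% of all genes tested were called, 5.09% as higher and 0.931% as lower in *Cnr1-/-*. By the stricter rule, which asks for an adjusted p under 0.1 and also a fold change over 1.5, again 0 of the 6 passed, against 0.0901% of all genes. Fits with limma voom and with vooma weights also called 0 of the 6, whereas quantile normalisation called *Apoe* and *Cd9*, rescaling to equal totals of the listed nuclear genes called *Cd9*, and leaving out *Cnr1+/+* replicate 3 called *Trem2*. Of the log2 fold changes, 3 lay above 0 and 3 below, with a median of −0.06 beside a median of 0.08 over all genes tested. Under 3 other scalings (centring on library medians, quantile normalisation and the rescaling named above, in this order throughout) 1 of the 6 lay above 0, with medians of −0.13, −0.16 and −0.16 beside 0.01, 0.00 and −0.01 over all genes. For 0 of the 6 genes did the groups separate without overlap, whereas among all genes tested 8.85% were higher and 2.13% were lower without overlap. The other 4 genes, *Cst7*, *Itgax*, *Spp1* and *Lgals3*, lay under the minimum mean. The 3 libraries of a genotype are separate mice. The limma p-values rest on the spread between them, moderated toward that of other genes of similar mean. In bulk RNA, a smaller share of cells that express a gene and less RNA per cell cannot be told apart.

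**Figure D1:**
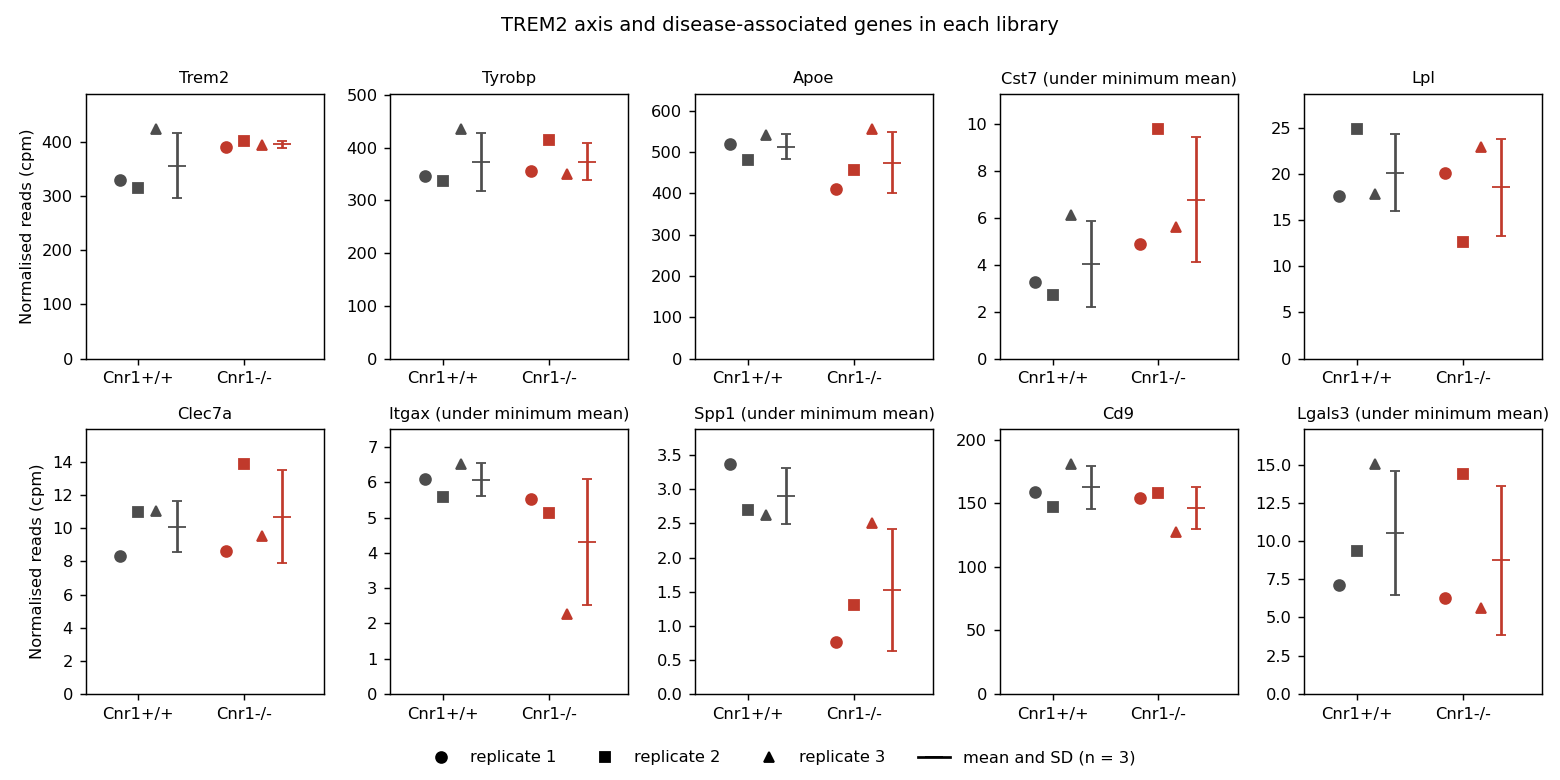
Normalised reads (cpm, y axes from 0) of the 10 genes in the 3 Cnr1+/+ (grey) and 3 Cnr1-/- (red) libraries, with the mean and SD (n = 3) to the right of the points. The groups overlap for 8 genes, and for Itgax and Spp1 all 3 Cnr1-/- libraries lie below all 3 Cnr1+/+ libraries.

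*Trem2* (chromosome 17, 48346401 to 48354148, mm10), the receptor, was measured at 329.5, 315.3 and 425 cpm in the *Cnr1+/+* libraries and at 389.9, 402 and 394.6 cpm in the *Cnr1-/-* libraries. The 3 *Cnr1-/-* values were close to each other and lay inside the range of the *Cnr1+/+* values, whose replicate 3 was the highest of all. The spread was 59.7 cpm (SD, n = 3) around a mean of 357 cpm in *Cnr1+/+* and 6.08 cpm (SD, n = 3) around 396 cpm in *Cnr1-/-*. The log2 fold change (*Cnr1-/-* minus *Cnr1+/+*, as throughout) was 0.16 ± 0.12 (SE, limma adjusted p = 0.900), and the 95% interval ran from −0.09 to 0.41. This interval spans fold changes of 0.939 to 1.33. Without *Cnr1+/+* replicate 3 the log2 fold change was 0.30 and passed the nominal threshold (limma adjusted p = 0.439, with 0.439 to 0.999 over all alternatives). It was 0.11 without *Cnr1+/+* replicate 1, 0.08 without *Cnr1+/+* replicate 2, and 0.09, 0.03 and 0.06 under the 3 other scalings. *Cnr1+/+* replicate 3 was also the highest library for *Tyrobp*, *Itgax*, *Cd9* and *Lgals3*, and mitochondrially encoded genes held 2.92% of its total against 3.94% to 4.96% in the other libraries. With mitochondrially encoded genes taken off the library total, an alternative added after seeing the data, the log2 fold change of *Trem2* was 0.17.

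*Tyrobp* (chromosome 7, 30413760 to 30417586), which encodes the signalling adaptor of TREM2 and of several other myeloid receptors, was measured at 346.9, 336.2 and 436.6 cpm in *Cnr1+/+* and at 356.5, 414 and 351.2 cpm in *Cnr1-/-*. In both groups 1 library, *Cnr1+/+* replicate 3 and *Cnr1-/-* replicate 2, stood above the other two. The means were 373 ± 55.1 and 374 ± 34.8 cpm (SD, n = 3), with a log2 fold change of 0.01 ± 0.12 (SE, limma adjusted p = 0.995, 95% interval −0.25 to 0.26). Its sign turned under the 3 other scalings, to −0.07, −0.11 and −0.09. The last of these changes the listed total as well as leaving out mitochondrially encoded genes: rescaling to all listed genes gave −0.10, and taking mitochondrially encoded genes off the library total alone gave 0.02 (both added after seeing the data). A ratio of the receptor to its adaptor within each library, added after seeing the data, does not depend on a scaling by 1 factor per library. *Trem2* over *Tyrobp* was 0.950, 0.938 and 0.973 in *Cnr1+/+* and 1.09, 0.971 and 1.12 in *Cnr1-/-*. *Cnr1-/-* replicate 2 lay inside the *Cnr1+/+* range and the other 2 *Cnr1-/-* libraries above it (two-sided exact permutation p = 0.2, where 3 against 3 libraries cannot give less than 0.1).

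Of the genes for lipid handling, *Apoe* (chromosome 7, 19696109 to 19699189) encodes the apolipoprotein that is both a TREM2 ligand and a carrier of lipids between brain cells. Its values were 520, 479.7 and 540.6 cpm in *Cnr1+/+* and 411.2, 455.4 and 557 cpm in *Cnr1-/-*. *Cnr1-/-* replicates 1 and 2 were the lowest of all libraries and *Cnr1-/-* replicate 3 was the highest, so the groups overlapped. The log2 fold change was −0.12 ± 0.12 (SE, limma adjusted p = 0.916, 95% interval −0.38 to 0.13). Leaving out *Cnr1-/-* replicate 1 gave −0.03, and leaving out *Cnr1-/-* replicate 3 gave −0.24 with *Cnr1-/-* lower without overlap, neither past the nominal threshold. Quantile normalisation gave −0.21, just past it. Astrocytes also express *Apoe*, and the 9 astrocyte markers summed to 457 to 740 cpm in *Cnr1+/+* and 573 to 888 cpm in *Cnr1-/-*, highest in *Cnr1-/-* replicate 3. Of these markers 5 were tested, 1 was called higher (*Slc1a3*) and none lower. The part of astrocyte RNA in the *Apoe* values was not tested. *Apoe* over *Trem2* was 1.58, 1.52 and 1.27 in *Cnr1+/+* and 1.05, 1.13 and 1.41 in *Cnr1-/-*, with overlapping groups (two-sided exact permutation p = 0.2).

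*Lpl* (chromosome 8, 68880491 to 68907449), which encodes lipoprotein lipase, had 17.6, 24.9 and 17.9 cpm in *Cnr1+/+* and 20.1, 12.7 and 22.9 cpm in *Cnr1-/-*. The lowest value, *Cnr1-/-* replicate 2, came from the library with blood cell transcripts, and the 5 other libraries lay between 17.6 and 24.9 cpm. The log2 fold change of *Lpl* was −0.14 ± 0.23 (SE, limma adjusted p = 0.954, 95% interval −0.62 to 0.34). It turned to 0.11 without *Cnr1-/-* replicate 2 and to 0.02 without *Cnr1+/+* replicate 2.

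Among the other surface proteins, *Clec7a* (chromosome 6, 129461591 to 129472780) encodes dectin-1, a receptor for fungal beta-glucans that signals through SYK, and the table gives it the biotype polymorphic_pseudogene. It had 8.30, 10.97 and 11.04 cpm in *Cnr1+/+* and 8.66, 13.9 and 9.54 cpm in *Cnr1-/-*, where *Cnr1-/-* replicate 2 was the highest library. For *Clec7a* the log2 fold change was 0.06 ± 0.29 (SE, limma adjusted p = 0.986, 95% interval −0.53 to 0.65), and it was −0.14 without *Cnr1-/-* replicate 2 and without a filter on low values. *Cd9* (chromosome 6, 125460266 to 125494792) encodes a tetraspanin of plasma membrane and vesicles. It was measured at 158.9, 147.5 and 181 cpm in *Cnr1+/+* and at 153.8, 157.9 and 127.1 cpm in *Cnr1-/-*. *Cnr1-/-* replicate 3 lay below all other libraries and *Cnr1+/+* replicate 3 above them. The log2 fold change of *Cd9* was −0.15 ± 0.13 (SE, limma adjusted p = 0.900, 95% interval −0.42 to 0.11). It was −0.25, past the nominal threshold, both under quantile normalisation and after rescaling to the listed nuclear genes. With single libraries left out, *Cd9* was never called: it was −0.05 without *Cnr1-/-* replicate 3, −0.07 without *Cnr1+/+* replicate 3, and −0.22 with no overlap of the groups without *Cnr1+/+* replicate 2. *Gm28809* and *Gm26728* overlap *Cd9* on the opposite strand in GENCODE vM21.

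**Figure D2:**
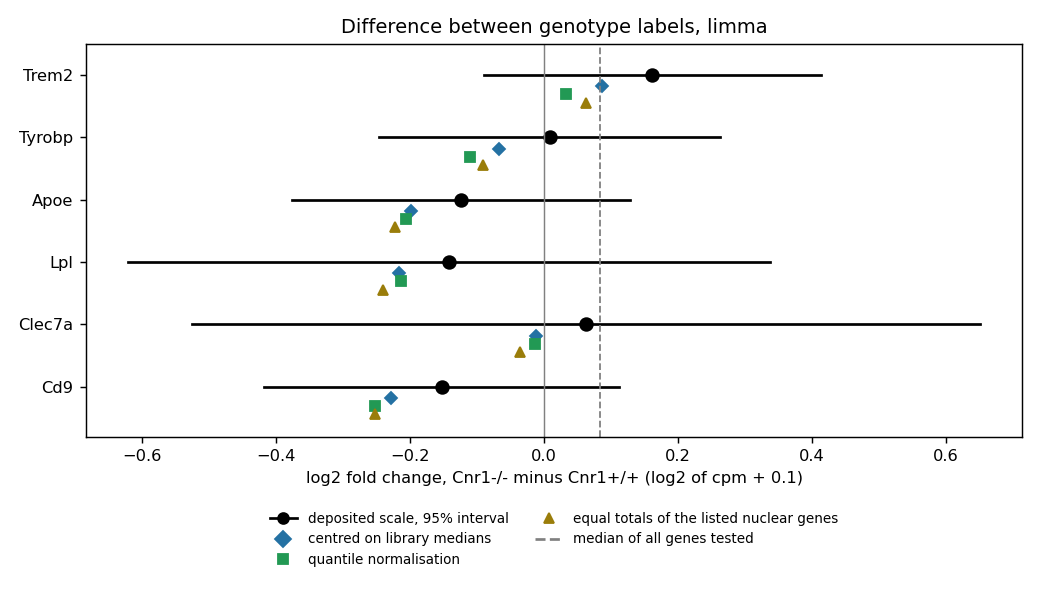
Log2 fold change (x axis, Cnr1-/- minus Cnr1+/+ on log2 of cpm + 0.1) of the 6 genes tested, with 95% intervals from limma on the deposited scale (black) and the values under 3 other scalings (coloured). All 6 intervals include 0, and the other scalings move each gene toward lower values, past 0 for Tyrobp and Clec7a.

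The 4 genes under the minimum mean were measured by 7 to 154 reads per library, and their values are given with exact 95% Poisson intervals of the reads, which cover counting error only. For 2 of them, *Itgax* and *Spp1*, all *Cnr1-/-* values lay below all *Cnr1+/+* values. Among all genes under the minimum mean, groups did not overlap in 9.68%, and in 4.33% the *Cnr1-/-* values were the lower ones. In a fit of all 19225 genes without the filter, 0 of the 10 genes were called, against 5.17% of all genes.

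*Itgax* (chromosome 7, 128129547 to 128150658) encodes CD11c, the integrin subunit that pairs with the product of *Itgb2* and marks dendritic cells as well as disease-associated microglia. It had 6.10, 5.59 and 6.52 cpm in *Cnr1+/+* (47, 56 and 62 reads) and 5.52, 5.13 and 2.27 cpm in *Cnr1-/-* (51, 55 and 19 reads). Only *Cnr1-/-* replicate 3, with an interval of 1.36 to 3.54 cpm, stood clear of the others, whereas *Cnr1-/-* replicate 1 (4.11 to 7.26 cpm) and *Cnr1+/+* replicate 2 (4.22 to 7.26 cpm) differed by less than counting error. The means were 6.07 ± 0.467 and 4.31 ± 1.78 cpm (SD, n = 3; two-sided exact permutation p = 0.1, the smallest the design can give), and the fit without the filter gave −0.58 ± 0.40 (SE, limma adjusted p = 0.957). Dendritic cell markers were low: the 5 analysed summed to 4.28 to 11.5 cpm in *Cnr1+/+* and 3.68 to 6.80 cpm in *Cnr1-/-*. *Xcr1* and *Flt3* were listed at 0 in some libraries. *Cd209a* (1.52 to 3.99 cpm), *Zbtb46* (1.03 to 5.15 cpm) and *Itgae* (0.758 to 1.59 cpm) lay above the counting limit in every library. The part of dendritic cells in the *Itgax* values was not tested.

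*Spp1* (chromosome 5, 104435118 to 104441051) encodes osteopontin, a secreted ligand of integrins and CD44. It had 3.37, 2.69 and 2.63 cpm in *Cnr1+/+* (26, 27 and 25 reads) and 0.758, 1.31 and 2.50 cpm in *Cnr1-/-* (7, 14 and 21 reads). *Cnr1-/-* replicate 1 was the lowest, with an interval of 0.305 to 1.56 cpm that stayed under those of all 3 *Cnr1+/+* libraries, while *Cnr1-/-* replicate 3 (1.55 to 3.83 cpm) and *Cnr1+/+* replicate 3 (1.70 to 3.88 cpm) could not be told apart. The means were 2.90 ± 0.412 and 1.52 ± 0.893 cpm (SD, n = 3; two-sided exact permutation p = 0.1), and the log2 fold change without the filter was −1.03 ± 0.62 (SE, limma adjusted p = 0.957). *Gm42793* overlaps *Spp1* on the same strand in GENCODE vM21, so reads may be divided between them. Border-associated macrophages also express *Spp1*. Their 9 markers summed to 306 to 433 cpm in *Cnr1+/+* and 345 to 372 cpm in *Cnr1-/-*. Of the 7 tested, 3 had a log2 fold change above 0 and 4 below, and 1 was called, *Pf4*, which was lower in *Cnr1-/-* without overlap. Their part in the *Spp1* values was not tested.

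*Cst7* (chromosome 2, 150570415 to 150578945) encodes cystatin F, an inhibitor of lysosomal cysteine proteases. It had 3.24, 2.69 and 6.10 cpm in *Cnr1+/+* (25, 27 and 58 reads) and 4.87, 9.79 and 5.60 cpm in *Cnr1-/-* (45, 105 and 47 reads). The highest value was that of *Cnr1-/-* replicate 2, the library with blood cell transcripts, and the other 2 *Cnr1-/-* libraries lay below *Cnr1+/+* replicate 3. Without the filter the log2 fold change of *Cst7* was 0.76 ± 0.41 (SE, limma adjusted p = 0.954), and it was 0.46 (limma adjusted p = 0.998) when *Cnr1-/-* replicate 2 was also left out. *Lgals3* (chromosome 14, 47367751 to 47386161) encodes galectin-3, a galactoside-binding lectin of macrophages. It had 7.13, 9.38 and 15.0 cpm in *Cnr1+/+* (55, 94 and 143 reads) and 6.28, 14.4 and 5.60 cpm in *Cnr1-/-* (58, 154 and 47 reads). Again *Cnr1-/-* replicate 2 was by far the highest of its group. The log2 fold change of *Lgals3* was −0.33 ± 0.33 without the filter (SE, limma adjusted p = 0.971). With *Cnr1-/-* replicate 2 also left out it was −0.75 (limma adjusted p = 0.998), and the remaining *Cnr1-/-* libraries lay below all *Cnr1+/+* libraries. With 1 other library left out, *Lgals3* passed the minimum mean in 3 fits, was called in 0 and overlapped between groups, at −0.08 where *Cnr1-/-* replicate 3 was left out, −0.16 where it was *Cnr1-/-* replicate 1 and −0.57 where it was *Cnr1+/+* replicate 1. The 6 monocyte markers summed to 109 cpm in that library and 31.0 to 36.3 cpm elsewhere. *Chil3*, also a neutrophil gene, gave 68.4 cpm of this sum. *Ly6c2* and *Plac8* were also highest there, and *Ccr2*, *Vcan* and *Fn1* were not. How far blood myeloid cells contribute to *Cst7*, *Lgals3* and *Clec7a* there was not tested.

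**Figure D3:**
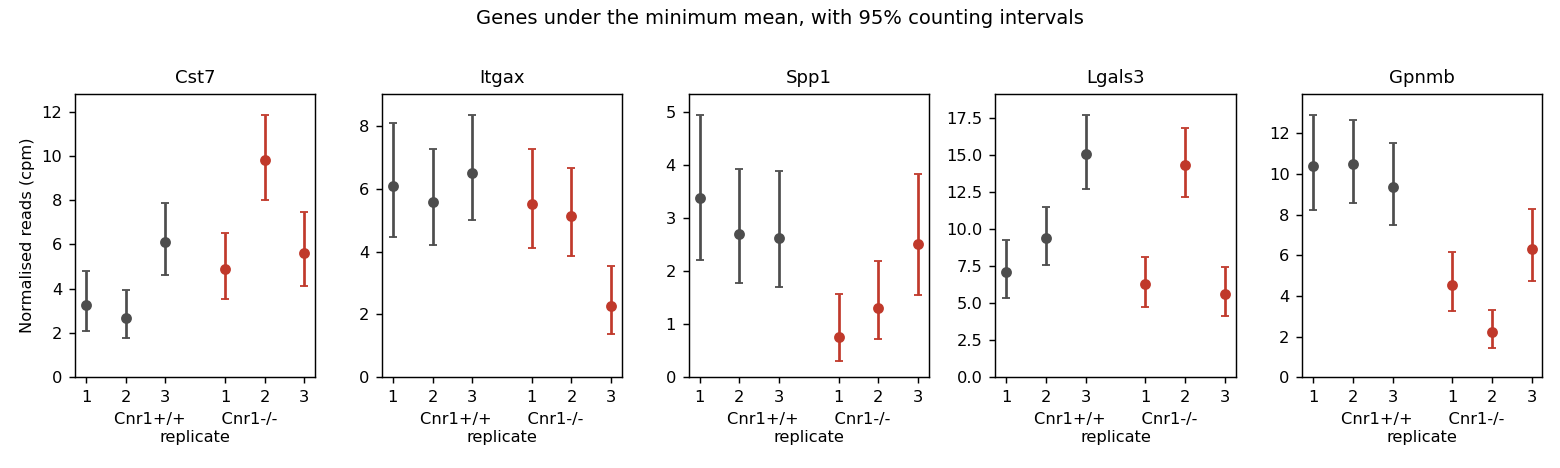
Normalised reads (cpm, y axes from 0) of the 4 genes under the minimum mean and of Gpnmb in each Cnr1+/+ (grey) and Cnr1-/- (red) library, with exact 95% Poisson intervals of the read counts. For Itgax and Spp1 the intervals of some libraries of different label overlap, as they do for Gpnmb between Cnr1-/- replicate 3 and Cnr1+/+ replicate 3 (7.52 to 11.5 cpm).

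Across the 6 libraries, the highest value exceeded the lowest 1.30-fold for *Tyrobp*, 1.35-fold for *Trem2* and *Apoe* and 1.42-fold for *Cd9*. The range was wider for *Clec7a* (1.67-fold), *Lpl* (1.97-fold), *Lgals3* (2.68-fold), *Itgax* (2.88-fold), *Cst7* (3.63-fold) and *Spp1* (4.45-fold), which had fewer reads. The 10 genes did not share 1 order of libraries. *Cnr1+/+* replicate 3 was highest for 5 of them and *Cnr1-/-* replicate 2 for 2, whereas *Cnr1+/+* replicate 2 and *Cnr1-/-* replicate 3 were each lowest for 3. Their sum was 1401, 1335 and 1642 cpm in *Cnr1+/+* and 1358, 1486 and 1478 cpm in *Cnr1-/-*.

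The surrounding pathway was described with 8 lists of 93 genes, of which 89 were listed and 65 tested. With limma, 4 of the 65 were called higher and 1 lower (7.69%, beside 6.02% of all genes), with a median log2 fold change of 0.10, and none had an adjusted p under 0.1. Among 12 signalling proteins below TYROBP, which include the kinase SYK and the phospholipase PLCG2, 10 were tested and 1 was called. This was *Inpp5d*, which encodes SHIP1, a phosphatase that restrains phosphoinositide signalling from TREM2 and TYROBP. It had 175, 184 and 201 cpm in *Cnr1+/+* and 221.5, 213 and 235 cpm in *Cnr1-/-*, and the log2 fold change was 0.26 ± 0.12 (SE, limma adjusted p = 0.809). The groups did not overlap, but the call was lost under each of the 3 other scalings, with values of 0.18, 0.16 and 0.16, with eBayes without a trend (0.26), and without *Cnr1+/+* replicate 1 (0.21) or 2 (0.25) and *Cnr1-/-* replicate 1 (0.26) or 3 (0.22).

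Of the 7 genes for TREM2 shedding and cleavage of its membrane stub, among them *Adam10*, *Adam17* and the presenilins, all were tested and 1 was called. *Aph1a*, a subunit of gamma-secretase, had 34.6, 31.3 and 37.9 cpm in *Cnr1+/+* and 46.1, 45.5 and 42.9 cpm in *Cnr1-/-*. All *Cnr1-/-* values lay above all *Cnr1+/+* values, with a log2 fold change of 0.38 ± 0.16 (SE, limma adjusted p = 0.792). Its call was lost after rescaling to the listed nuclear genes (0.28) and without *Cnr1+/+* replicate 2 (0.31) or *Cnr1-/-* replicate 1 (0.36) or 2 (0.37). Of 10 other TREM family or TYROBP-coupled receptors only *Siglech* and *Clec5a* passed the minimum mean, and 0 were called. *Clec5a*, a TYROBP-coupled lectin receptor, had the smaller p, with a log2 fold change of 0.26 ± 0.15 (SE, limma adjusted p = 0.839). It was called without *Cnr1-/-* replicate 3 (0.36). *Treml1*, under the minimum mean and named after its values were seen, was called higher without the filter (0.765), where 5.17% of all genes were called. It was also called when *Cnr1-/-* replicate 2 was left out together with the filter (0.864).

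Further genes of the disease-associated programme did not move one way. The 5 other early genes had log2 fold changes between 0.02 and 0.35, and 0 were called. The largest was that of *Lyz2*, a lysozyme of microglia and blood myeloid cells, at 151, 141 and 166 cpm in *Cnr1+/+* and 149.7, 317 and 155 cpm in *Cnr1-/-*. Only *Cnr1-/-* replicate 2, the library with neutrophil transcripts, stood above the others, and without it the log2 fold change of *Lyz2* went from 0.35 to 0.00. *Lyz2* was called when *Cnr1-/-* replicate 1 (0.54) or 3 (0.51) was left out instead, and at an unmoved 0.35 in the unfiltered fit of all genes.

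Of 19 other late genes, 18 were listed, 11 were tested, and 1 was called in each direction, with a median of 0.02. *Cd63* and, in the list for shedding, *Adam17*, both named after their values were seen, were called lower under each of the 3 other scalings (−0.29, −0.32 and −0.32 for *Cd63*, −0.23, −0.25 and −0.25 for *Adam17*). *Cd63* was also called lower without *Cnr1+/+* replicate 2 (−0.33). Without *Cnr1-/-* replicate 1, *Cd52* (0.37) and *Cybb* (0.64), named after their values were seen, were called higher. *Ccl6*, a chemokine of myeloid cells, had 53.2, 55.3 and 60.8 cpm in *Cnr1+/+* and 70.9, 85.0 and 73.7 cpm in *Cnr1-/-*. It was higher without overlap, with a log2 fold change of 0.44 ± 0.14 (SE, limma adjusted p = 0.610), and stayed called under every alternative run. *Axl*, a receptor tyrosine kinase for apoptotic cells, had 23.7, 10.9 and 12.9 cpm in *Cnr1+/+* and 6.28, 8.49 and 12.8 cpm in *Cnr1-/-*. *Cnr1+/+* replicate 1 was far above the rest and the groups overlapped. The log2 fold change of *Axl* was −0.76 ± 0.31 (SE, limma adjusted p = 0.792), and it missed the nominal threshold when *Cnr1+/+* replicate 1 (−0.43) or *Cnr1-/-* replicate 1 (−0.52) was left out, and when *Cnr1-/-* replicate 2 was left out together with the filter (−0.73).

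*Gpnmb* (chromosome 6, 49036546 to 49070930), a membrane glycoprotein of lipid-loaded and disease-associated phagocytes, was chosen after its values were seen and lay under the minimum mean. It had 10.4, 10.5 and 9.36 cpm in *Cnr1+/+* (80, 105 and 89 reads) and 4.55, 2.24 and 6.32 cpm in *Cnr1-/-* (42, 24 and 53 reads). The *Cnr1-/-* values were all lower, and the means of 10.1 ± 0.618 and 4.37 ± 2.05 cpm (SD, n = 3) differed with a two-sided exact permutation p of 0.1, the smallest possible. In the fit without a filter its log2 fold change was −1.30 ± 0.36 (SE, limma adjusted p = 0.358), and −0.90 (limma adjusted p = 0.998) without *Cnr1-/-* replicate 2. Since 5.17% of all genes had a nominal p under 0.05 in that fit and *Gpnmb* was picked for its values, its p-values are a description.

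All 12 homeostatic genes, which disease-associated microglia lower, were tested and 0 were called, with log2 fold changes from −0.03 to 0.21.

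Among 17 genes for lipid and lipoprotein handling, 16 were listed and 11 tested, and *Abcg1* alone was called. *Abcg1* encodes a transporter that exports cholesterol to lipoproteins. It had 35.0, 39.2 and 49.0 cpm in *Cnr1+/+* and 70.0, 55.4 and 56.0 cpm in *Cnr1-/-*. All *Cnr1-/-* values were higher, with a log2 fold change of 0.56 ± 0.16 (SE, limma adjusted p = 0.478), and the call held under the 3 other scalings (0.49, 0.47 and 0.46) and with each library left out. *Lipa*, lysosomal acid lipase, named after its values were seen, had a log2 fold change of −0.35 ± 0.18 (SE, limma adjusted p = 0.838). It was called lower under the 3 other scalings (−0.43, −0.43 and −0.45) and without *Cnr1+/+* replicate 1 (−0.46) or *Cnr1-/-* replicate 2 (−0.57). Without *Cnr1+/+* replicate 3 the second gene called was *Lrp1*, higher at 0.27. The partner transporter of *Abcg1*, *Abca1*, had a log2 fold change of −0.10. Of 11 binding partners and targets of the proteins above, such as the integrin subunit *Itgb2* and the cystatin F target *Ctsc*, 9 were listed, 7 tested and 0 called. *Itgb2* had the smallest p (0.23 ± 0.14, SE, limma adjusted p = 0.857), and it was called without *Cnr1+/+* replicate 3 (0.38), as was *Cd81* (0.24). *Itgav* was called lower after rescaling to the listed nuclear genes (−0.32) and *Ptgfrn* was called lower when *Cnr1+/+* replicate 1 was left out (−0.71), and these 3 genes were named after their values were seen. *Mamdc2*, *Ch25h*, *Angptl4* and *Gpihbp1* were not analysed here.

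**Figure D4:**
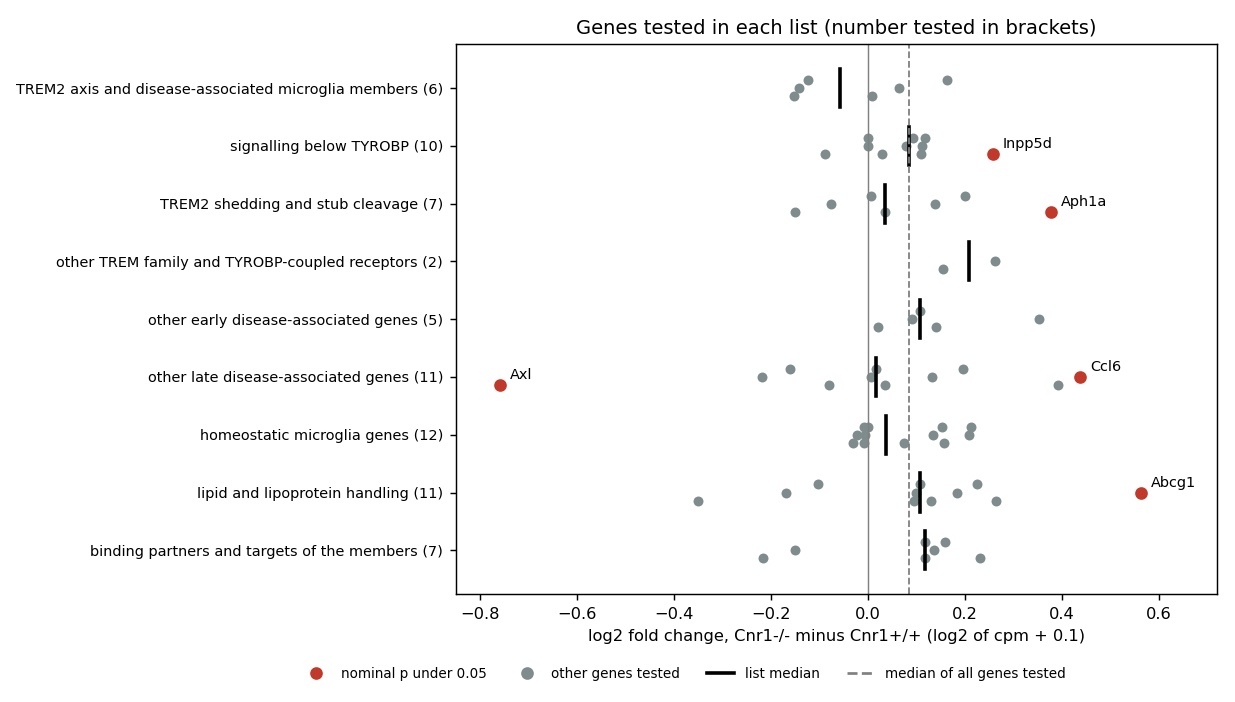
Log2 fold change (x axis, Cnr1-/- minus Cnr1+/+ on log2 of cpm + 0.1) of each gene tested in the 9 lists, with list medians (black bars) and the median of all genes tested (dashed, 0.08). Genes called at a nominal p under 0.05 are red and named, and the first row, with the 6 tested genes of the TREM2 axis and disease-associated set, has none.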

How the data were processed

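The data are 6 libraries of brain CD11b+ cell RNA, 3 per genotype, grouped by their labels. The authors trimmed the reads, aligned them to mm10 with STAR, assigned them to genes with the E/M quantification of Partek and applied TMM scaling. The deposited values are CPM (cpm). The cpm worth of 1 read was found for each library, and 86.9% to 88.5% of values corresponded to whole reads (within 0.1 read). This was too few for count tests, and read numbers in the text are values divided by that worth. All sample columns were mapped (0 left out).

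A gene entered the test if its mean over the 6 libraries reached 10 cpm. On log2(cpm + 0.1), a linear model of genotype was fitted by limma (3.58.1, run in R 4.3.3), its variances were moderated by eBayes along the mean-variance trend, and p-values were adjusted after Benjamini-Hochberg. A pseudocount makes fold changes of low genes smaller. For single genes the two-sided exact permutation test ran over all 20 assignments of the libraries. The steps were tested on simulated data.

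The genes and lists were chosen with earlier results of these data known. Named are all 10 genes of the set, in each other list the genes with a nominal p under 0.05 or else the one with the smallest p, and *Cnr1*. For the homeostatic list that gene is not reported here. Other genes with values were named after their values were seen or as markers. Alternatives were 2 other pseudocounts (1 and 0.0001), a minimum mean of 20 or none, 3 other scalings (centring on library medians, quantile normalisation, and rescaling to equal totals of the listed genes less mitochondrially encoded ones), eBayes without trend, vooma weights, limma voom on the reads, a replicate block and each library left out. Leaving out *Cnr1-/-* replicate 2 together with the filter was added after seeing the data, as were rescaling to all listed genes and taking mitochondrially encoded genes off the total. Poisson intervals used scipy 1.17.1, and figures matplotlib 3.10.9 in Python 3.11.15.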

Additional observations from a re-analysis of the deposited data

How the results depend on the processing

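Without the filter on low values, the number of genes of the set whose groups did not overlap rose from 0 to 2 (10.1% of all genes), and to 3 when *Cnr1-/-* replicate 2 was left out as well (17.8% of all genes). It lay between 0 and 2 with each library left out, where 17.6% to 26.1% of all genes did not overlap, since 2 against 3 libraries separate more often. The number called was 2 under quantile normalisation (*Apoe* and *Cd9*, where 5.56% of all genes were called), 1 after rescaling to the listed nuclear genes (*Cd9*, 5.29%), 2 after rescaling to all listed genes (*Apoe* and *Cd9*, 5.15%), 0 with mitochondrially encoded genes taken off the library total and 0 or 1 with each library left out (*Trem2* without *Cnr1+/+* replicate 3, 9.07%). The sign of *Tyrobp* reversed on centring (−0.067), quantile normalisation (−0.111), rescaling to the listed nuclear (−0.091) or all listed genes (−0.099) and without *Cnr1+/+* replicate 1 (−0.04), *Cnr1+/+* replicate 2 (−0.06) or *Cnr1-/-* replicate 2 (−0.067, with or without the filter), with −0.067 to 0.127 over the libraries left out in turn. That of *Lpl* reversed without *Cnr1+/+* replicate 2 (0.02) and without *Cnr1-/-* replicate 2 (0.11, with or without the filter), with −0.314 to 0.110 over the 6 fits that each left out 1 library. That of *Clec7a* reversed on centring (−0.0124), quantile normalisation (−0.0126), rescaling to the listed nuclear (−0.0355) or all listed genes (−0.0437), without *Cnr1+/+* replicate 1 (−0.071, with −0.071 to 0.199 over the 5 such fits that tested it) and, unfiltered, without *Cnr1-/-* replicate 2 (−0.14). None of these values was called, and the cause was not tested. Of 117 values of the set under alternatives, 94 kept direction and side of the threshold, 17 reversed and 6 passed it. Of 179 values of the other named genes, 155 kept both, 17 lost and 7 gained a call. Of 136 counts of genes called in a list, 33 moved by over 1.5 times or to or from 0, and 7 of 136 list medians moved by more than the spread between libraries. The 3 other scalings moved the median of all genes from 0.08 to 0.01, 0.00 and −0.01 and the calls from 339 higher and 62 lower to 197 and 178, 174 and 196, and 142 and 210. Without *Cnr1-/-* replicate 2, 251 genes were called, and 993 without the filter. Same-numbered libraries did not deviate together (correlations across genes of −0.056, −0.032 and −0.031), and no library correlated best with its own number. With 3 libraries per group this cannot show whether same-numbered mice were littermates or were processed together. The paper states that littermates were used, and the labels do not say which libraries share a litter. With the replicate block, 0 genes of the set and 421 genes in all were called, and *Lyz2* was called at 0.35.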
